A study of Bos taurus with 46 samples.

Results

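Circulating miRNAs were compared between Day 16 and Day 8 of the oestrous cycle in 8 non-pregnant heifers, each sampled on both days. These are the 8 NP16 and the 8 NP8 libraries, 16 of the 46 small RNA libraries of the series, and they were chosen by day and pregnancy status and paired by the animal number in the labels. The libraries of NP16 held 1488279 to 4672302 miRNA reads, and those of NP8 held 2197709 to 4700764.

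Plasma was obtained from EDTA blood of cycling Holstein-Friesian heifers kept on a single farm, and was centrifuged at a low and then a high speed to remove cells, debris and platelets. NP16 is plasma of sham-inseminated heifers on Day 16, and NP8 is plasma of the same heifers on Day 8. NP0 is their plasma on the day of the first sham insemination (Day 0). P24 and P16 are plasma of inseminated, pregnant heifers on Day 24 and Day 16. All animals had their oestrus synchronised with an intravaginal progesterone insert, buserelin and cloprostenol, so that no group followed an unmanipulated cycle. Hormone levels were not analysed here, and the stage of the corpus luteum in each animal is known only by day.

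The luteal phase is the part of the cycle in which the corpus luteum, formed from the ovulated follicle, secretes progesterone. In cattle Day 8 falls within its active period and Day 16 close to the time at which uterine prostaglandin ends it when no embryo is recognised. miRNAs are short RNAs that pair with messenger RNAs through a seed near their start and lower the output of those messengers, and in plasma they are carried by vesicles and proteins and come largely from blood cells and vessel walls. In plasma, a change in the number of cells that release a miRNA and a change in what each cell releases cannot be told apart.

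No miRNA passed the threshold between NP16 and NP8. Of the 214 miRNAs that passed the filter on low values, 0 (0%) had an adjusted p under 0.1 (edgeR quasi-likelihood test with the heifer as a block, Benjamini-Hochberg adjustment), and the smallest adjusted p was 0.302. At an unadjusted p under 0.05 there were 15 (7.01%), of which 12 had a positive and 3 a negative log2 fold change (NP16 over NP8). limma on log2(RPM + 1) called 0 past the threshold, with 21 at an unadjusted p under 0.05, of which 3 were positive and 18 negative, the reverse balance. An exact permutation test per miRNA, also on log2(RPM + 1), had 10 at an unadjusted p under 0.05 (3 positive and 7 negative). It called 0, a count that says little because its smallest possible p with 8 pairs is 0.0078 and passes the adjustment over 214 only where many miRNAs reach it. DESeq2 called 4, namely miR-451, miR-146b, miR-101 and miR-1271 (adjusted p 0.0611 to 0.0795), with 21 at an unadjusted p under 0.05. The count also turned on single heifers. Without heifer 16, edgeR called 5 (miR-486, miR-101, miR-451, miR-146b and miR-25, each with an adjusted p of 0.0292), and without heifer 18 it called 1 (miR-1271, adjusted p = 0.0829). On the TMM scale heifer 16 was the only heifer with a negative difference for miR-486, miR-101, miR-451 and miR-25, and had the smallest for miR-146b. Heifer 18 was the only heifer with a positive difference for miR-1271. Leaving out the opposing animal lowers these p-values by itself, so the calls add no support. With each of the other 6 heifers left out it called 0. With no filter on low values it called 4 (miR-486, miR-1271, miR-451 and miR-454).

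Differences were small against their error. The log2 fold changes ran from -1.06 to 0.85, with quartiles of -0.12 and 0.15, and 171 of 214 were under 0.25 in size. In size, 5 exceeded 0.5 (miR-1271, miR-486, miR-451, miR-146b and the human-named miR-3168) and 1 exceeded 1 (miR-1271). Of these, miR-3168 was near the floor: 0 NP16 and 0 NP8 libraries reached 25 RPM, and it passed the filter through P24 alone. The median standard error was 0.15, and for 209 of 214 miRNAs the 95% interval lay within 1 on either side of 0. Of all 214 log2 fold changes, 116 were positive and 98 negative (54.2% positive, median 0.02) when libraries were scaled by TMM, the trimmed mean of M-values. With library totals in their place 38 were positive and 176 negative (17.8% positive, median -0.17), a shift of -0.19 in the median, and of the 31 at an unadjusted p under 0.05 then 3 were positive and 28 negative. Log2 fold changes given here are on the TMM scale unless library totals (the summed reads of the tested miRNAs) are named. Values in RPM (reads scaled to a fixed number of mapped reads, as the authors deposited them) are levels on a scale apart from both. The direction of a small difference can differ between these scales.

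**Figure D1:**
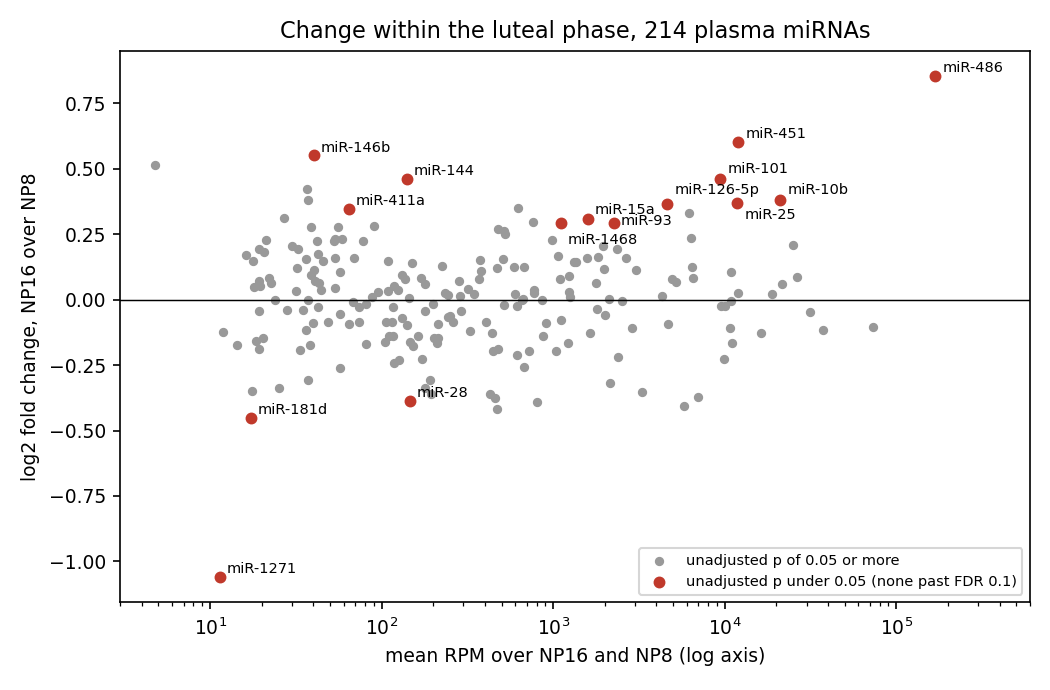
Log2 fold change (NP16 over NP8, TMM scale) of the 214 tested miRNAs against their mean RPM over NP16 and NP8 (log axis). Red points are the 15 with an unadjusted p under 0.05, of which 12 lie above 0, and none passed the adjusted threshold; with library totals in place of TMM, 3 of 31 such miRNAs lie above 0.

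The plot of log2 fold change against level shows the 15 at both ends of the abundance range, with miR-486 the most abundant and miR-1271 at a mean of 11.3 RPM. Among the 54 most abundant miRNAs (1253 to 168876 RPM) 8 were at an unadjusted p under 0.05, and among the 54 least abundant 3 were.

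The ranges of both days overlapped for every miRNA tested: 0 of 214 (0%) had all NP16 values on the same side of all NP8 values. On the TMM scale, 3 of 214 (1.4%) had the same direction in 8 of 8 heifers, namely miR-146b, miR-144 and miR-126-5p, all higher on Day 16. In at least 7 of 8 heifers 20 (9.35%) had the same direction, 18 higher and 2 lower on Day 16, the 2 being miR-1271 and miR-194.

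Over the profile as a whole, day took 18.8% of the variance within animals on log2(RPM + 1), where 12.5% is the share if days were exchangeable, and the exact permutation p over all exchanges of day within animals was 0.148 (two-sided design of 8 pairs, smallest possible p 0.0078). With each heifer left out in turn the share was 14.9% (exact p = 0.406, without heifer 22) to 34.0% (exact p = 0.0469, without heifer 16), where 14.3% is the share for 7 heifers if days were exchangeable. Between the 8 heifers' own profiles of differences, the 28 pairwise correlations across the 214 miRNAs, which are not independent replicates, ran from -0.40 to 0.65 with a median of -0.03.

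miR-451 and miR-144, which are cut from a shared precursor transcript needed for red cell development, and miR-486, which is abundant in red cells and in muscle, had among the largest positive values. miR-451 (chromosome 19 from 20147906 to 20147928 on UMD 3.1) had a lowest, median and highest level of 7954, 13404 and 20336 RPM in NP16, against 5839, 11452 and 14386 RPM in NP8 (8 heifers each). The level was higher on Day 16 in 7 of 8 heifers, with heifer 16 the exception, and the ranges overlapped. Its log2 fold change was 0.60 ± 0.19 (SE; 95% interval 0.18 to 1.02; edgeR adjusted p = 0.372). miR-486, the most abundant miRNA in these libraries (chromosome 27 from 38990915 to 38990936), had 85841, 203406 and 359043 RPM in NP16, against 56937, 110235 and 262961 RPM in NP8. Its log2 fold change was 0.85 ± 0.33 (95% interval 0.14 to 1.57, edgeR adjusted p = 0.535), with 7 of 8 heifers higher on Day 16 and overlapping ranges. Without heifer 16 the log2 fold change of miR-486 was 1.16, and that of miR-451 was 0.76, both with an adjusted p of 0.0292 (edgeR). Heifer 16 was the only heifer lower on Day 16 for both, so that these values follow from leaving out the opposing animal.

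miR-144 lies beside miR-451 on chromosome 19 (20148048 to 20148069). It had 93.2, 149 and 198 RPM in NP16, against 79.9, 125 and 176 RPM in NP8, and a log2 fold change of 0.46 ± 0.15 (edgeR adjusted p = 0.372). On the TMM scale 8 of 8 heifers were higher on Day 16, and in RPM 6 of 8 were.

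The red cell (erythrocyte) list held 6 miRNAs (miR-451, miR-144, miR-486, miR-16a, miR-16b and miR-92a). All 6 had positive values, with a median log2 fold change of 0.40 against 0.02 over all 214, and 3 of the 6 were at an unadjusted p under 0.05, where 5.61% of all tested were in that direction. With library totals 6 of 6 were still positive (median 0.21). None of the 6 was at 0 in the 16 libraries. The list took 18.7%, 35.3% and 51.9% of miRNA reads in NP16 (lowest, median and highest), against 12.7%, 21.4% and 43.01% in NP8. The mean share was 34.5 ± 11.1% in NP16 and 25.5 ± 11.7% in NP8 (SD, n = 8 each), higher on Day 16 in 7 of 8 heifers, with an exact permutation p of 0.125 (adjusted p = 0.27 over 9 measures of the libraries).

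Heifer 16 ran the other way, with 18.7% in NP16 against 40.8% in NP8. It was the heifer with the opposite direction, so that leaving it out made 7 of 7 pairs alike and the exact p the smallest possible (0.0156, difference 13.5 percentage points), a value fixed by that choice. With each heifer left out in turn the difference was 6.96 (exact p = 0.25, without heifer 21) to 13.5 percentage points. On Day 0 the share was 25.9 ± 13.8%, with a range of 10.7% to 51.2%, so that the spread between animals on a single day was wider than the mean difference between days. miR-486 made up most of the share, at 28.0 ± 10.4% of miRNA reads in NP16 and 19.5 ± 11.0% in NP8, and the other 5 members together took 6.56 ± 0.953% and 5.99 ± 1.12% of miRNA reads in NP16 and in NP8.

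The log2 ratio of miR-451 to miR-23a, used as an index of red cell lysis, was 2.77 ± 0.67 in NP16 and 2.17 ± 0.78 in NP8 (exact p = 0.0547, adjusted p = 0.246), higher on Day 16 in 7 of 8 heifers. With each heifer left out in turn the difference was 0.42 to 0.81, the highest being without heifer 16, the opposing animal here too. miR-23a itself had 1209, 2019.9 and 2689 RPM in NP16, against 1595, 2308 and 2951 RPM in NP8, and a log2 fold change of 0.00 ± 0.10 that was negative, -0.19, with library totals. From RT-qPCR of miR-451 and miR-23a and from optical density, the paper judged all its profiled plasma samples to be without detectable haemolysis. The part of red cell release or lysis in the differences between the days was not tested here.

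**Figure D2:**
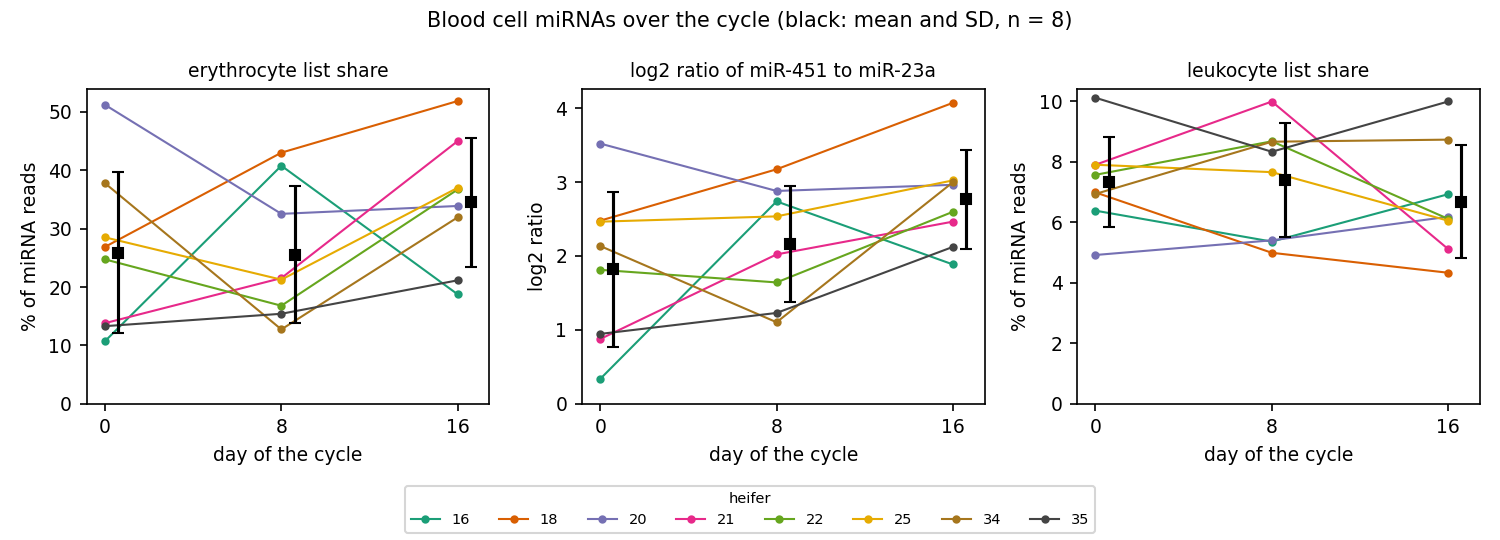
Share of miRNA reads taken by the red cell list, log2 ratio of miR-451 to miR-23a, and share taken by the leukocyte list, on cycle Days 0, 8 and 16 for each of 8 heifers (coloured lines), with the mean and SD in black. The red cell share is higher on Day 16 than on Day 8 in 7 of 8 heifers, and heifer 16 (green) runs the other way, with 18.7% on Day 16 and 40.8% on Day 8.

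The leukocyte and platelet lists had no like direction, and the leukocyte share is in the plot of blood cell miRNAs. The leukocyte list took 6.68 ± 1.86% of miRNA reads in NP16 and 7.39 ± 1.88% in NP8, higher in 4 of 8 heifers (exact p = 0.445, adjusted p = 0.501). The platelet list took 5.85 ± 1.01% in NP16 and 6.73 ± 1.73% in NP8, higher in 3 of 8 heifers (exact p = 0.18, adjusted p = 0.27). The share of miRNA reads among mapped reads was 70.9 ± 4.55% in NP16 and 70.8 ± 4.67% in NP8 (exact p = 0.969, adjusted p = 0.969). The number of miRNA names with at least 1 read was lower on Day 16 in 8 of 8 heifers, 478 ± 14.0 in NP16 and 499 ± 13.5 in NP8 (exact p = 0.0078, the smallest possible, adjusted p = 0.0703). NP16 libraries held fewer miRNA reads in 6 of 8 heifers. At an equal depth of 1488279 reads, a comparison chosen after seeing the data, the expected number was 443 ± 11.1 in NP16 and 451 ± 9.76 in NP8 (exact p = 0.18), lower in 7 of 8.

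miR-146b, which is not in the red cell list, had the smallest p of all 214. It belongs to a family induced by inflammatory signals that damps immune receptor signalling, and lies on chromosome 26 from 23509778 to 23509801. Its level was 29.8, 42.3 and 83.2 RPM in NP16, against 28.5, 32.7 and 48.9 RPM in NP8, and it was higher on Day 16 in 8 of 8 heifers although the ranges overlapped. The log2 fold change was 0.55 ± 0.14 (95% interval 0.25 to 0.85, edgeR adjusted p = 0.302). Heifer 18 stood apart on Day 16, with 83.2 RPM where the next heifer had 47.8. On Day 0 the mean was 35.5 ± 13.7 RPM.

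miR-101, known for lowering the histone methyltransferase EZH2, was far more abundant. It had 7586, 10591 and 14309 RPM in NP16, against 5998, 7997 and 12627 RPM in NP8 (chromosome 3 from 86285859 to 86285879), and in RPM it was higher on Day 16 in 8 of 8 heifers. Its log2 fold change was 0.46 ± 0.13 (95% interval 0.18 to 0.74, edgeR adjusted p = 0.302). miR-10b, which lies within a Hox gene cluster, had 19025, 22382 and 26945 RPM in NP16, against 14893, 19449 and 27697 RPM in NP8. On the TMM scale 7 of 8 heifers were higher on Day 16, with a log2 fold change of 0.38 ± 0.13 (edgeR adjusted p = 0.372), and in RPM 5 of 8 were.

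miR-126-5p and miR-126-3p are the arms of a hairpin in an endothelial gene. miR-126-5p had 3549, 4350.1 and 7924 RPM in NP16, against 3218, 3946 and 6548 RPM in NP8, and a log2 fold change of 0.36 ± 0.13 (edgeR adjusted p = 0.372). Its direction depended on the scale within animals, since 8 of 8 heifers were higher on Day 16 on the TMM scale and 4 of 8 in RPM. miR-126-3p had a log2 fold change of 0.26 ± 0.15.

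**Figure D3:**
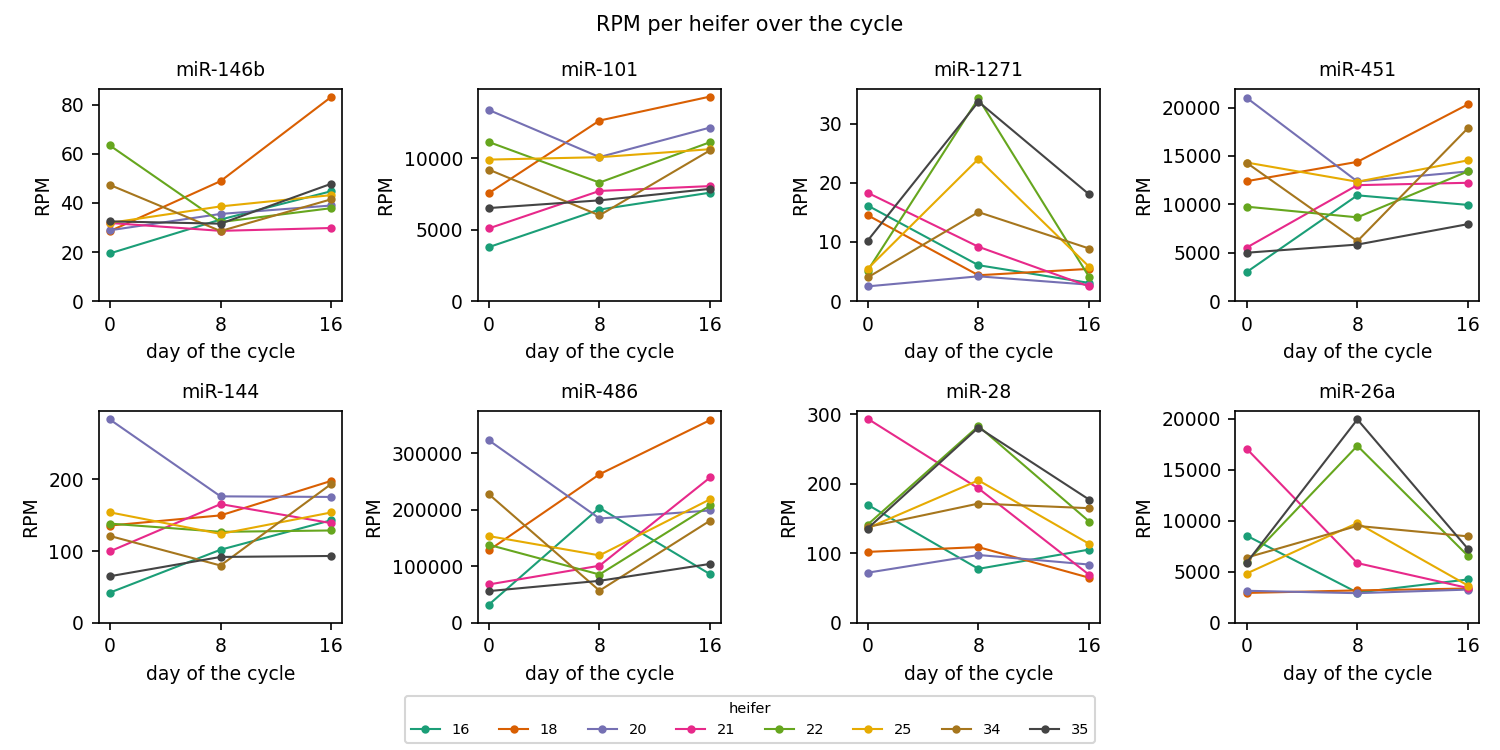
RPM of 8 miRNAs on cycle Days 0, 8 and 16, 1 line per heifer (n = 8), each panel with its own axis from 0. miR-146b and miR-101 are higher on Day 16 than on Day 8 in 8 of 8 heifers in RPM, miR-1271 and miR-28 are lower in 7 of 8, and the lines of different heifers cross and overlap in every panel.

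miR-25, miR-93 and miR-106b are cut from an intron of a gene of the DNA replication machinery. miR-25 (chromosome 25 from 38456026 to 38456047) had 9269, 12512 and 15995 RPM in NP16, against 8765, 10765 and 14649 RPM in NP8, higher on Day 16 in 7 of 8 heifers. The log2 fold changes were 0.37 ± 0.15 for miR-25, 0.29 ± 0.13 for miR-93 and 0.25 ± 0.13 for miR-106b, with edgeR adjusted p-values of 0.536, 0.585 and 0.657. miR-15a, a brake on the cell cycle made beside miR-16a, had 1294, 1619 and 2032 RPM in NP16, against 1079.8, 1581 and 1946 RPM in NP8, and a log2 fold change of 0.31 ± 0.12 (edgeR adjusted p = 0.536). miR-1468 had 0.29 ± 0.12 and miR-411a, of the imprinted Dlk1-Dio3 region, 0.35 ± 0.16.

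The differences between days were also set against the change in the red cell share within heifers, a comparison chosen after seeing the data. Both measures come from the same libraries. Over the 208 tested miRNAs outside the red cell list (TMM scale, 8 heifers), Pearson's r had an exact permutation p under 0.05 for 40 (19.2%), of which 16 were positive, and 14 passed an adjusted p of 0.1. Spearman's rho had an exact p under 0.05 for 32 and passed the adjustment for 0 (smallest adjusted p 0.136). Of the 12 that were at an unadjusted p under 0.05 between days, r had an exact p under 0.05 for 3, namely miR-25, miR-101 and miR-93, a share (25%) near that of all 208. For miR-25 r was 0.94 (exact permutation p = 0.0034, adjusted p = 0.0791) and rho 0.71 (exact p = 0.0576, adjusted p = 0.292). For miR-101 r was 0.87 (exact p = 0.0049, adjusted p = 0.0966) and rho 0.81 (exact p = 0.0218, adjusted p = 0.216). For miR-93 r was 0.84 (exact p = 0.0128, adjusted p = 0.133) and rho 0.71 (exact p = 0.0576, adjusted p = 0.292). Without heifers 16 and 21, the farthest in the share, r was 0.86, 0.80 and 0.79 for miR-25, miR-101 and miR-93. With these 6 heifers r was also 0.81 for miR-411a, 0.75 for miR-15a, 0.73 for miR-1468 and 0.62 for miR-126-5p. It was 0.37 for miR-10b, 0.20 for miR-146b, 0.0004 for miR-28, -0.34 for miR-181d and -0.59 for miR-1271. The values of miR-25, miR-101 and miR-93 thus did not stand apart among the 12.

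Of the 3 miRNAs with a negative value at an unadjusted p under 0.05, miR-1271 had the log2 fold change farthest from 0 of all 214. It shares its seed with miR-96, and its level was low, at 2.48, 4.75 and 18.0 RPM in NP16, against 4.19, 12.1 and 34.3 RPM in NP8 (chromosome 7 from 37163639 to 37163660). It summed to 192 reads over the 8 NP16 libraries against 647 over the 8 NP8 libraries, was lower on Day 16 in 7 of 8 heifers and had a log2 fold change of -1.06 ± 0.31 (95% interval -1.72 to -0.40, edgeR adjusted p = 0.302). Heifers 22, 35 and 25 had the highest values on Day 8, at 34.3, 33.7 and 24.0 RPM. The mean on Day 0 was 9.54 ± 6.13 RPM, below that of NP8. miR-1271 entered the test through NP8 alone: 2 of 8 NP8 libraries reached 25 RPM, 0 of 8 did in NP16, and it did not pass the filter in any of the other 4 groups, so that it could be tested only because its Day 8 values were high. Of the 214, 9 passed the filter in NP8 and not in NP16, among them miR-1271 and miR-181d, and 0 passed in NP16 and not in NP8.

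miR-28 had 64.8, 109 and 177 RPM in NP16, against 77.6, 182 and 283 RPM in NP8, lower on Day 16 in 7 of 8 heifers in RPM and in 6 of 8 on the TMM scale. Its log2 fold change was -0.39 ± 0.13 (95% interval -0.67 to -0.10, edgeR adjusted p = 0.372). miR-151-5p, which derives from the same kind of ancient repeat element as miR-28, had a log2 fold change of -0.39 ± 0.19, and miR-151-3p had -0.09 ± 0.14. miR-181d, of a family prominent in lymphocytes, had 3.74, 13.1 and 26.3 RPM in NP16, against 8.94, 21.8 and 32.6 RPM in NP8, and a log2 fold change of -0.45 ± 0.19 (edgeR adjusted p = 0.55).

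The 20 miRNAs with the smallest p also held 5 with an unadjusted p of 0.0556 to 0.0622. let-7d had a log2 fold change of -0.42 ± 0.20, miR-155, an immune cell miRNA induced on activation, -0.36 ± 0.18, and miR-26c -0.41 ± 0.20. let-7e had a positive value of 0.42 ± 0.20, with a level of 3.21, 39.96 and 81.1 RPM in NP16, against 1.40, 34.5 and 65.6 RPM in NP8. Heifer 22 was far below the others for let-7e on both days, at 3.21 RPM in NP16 and 1.40 RPM in NP8.

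**Figure D4:**
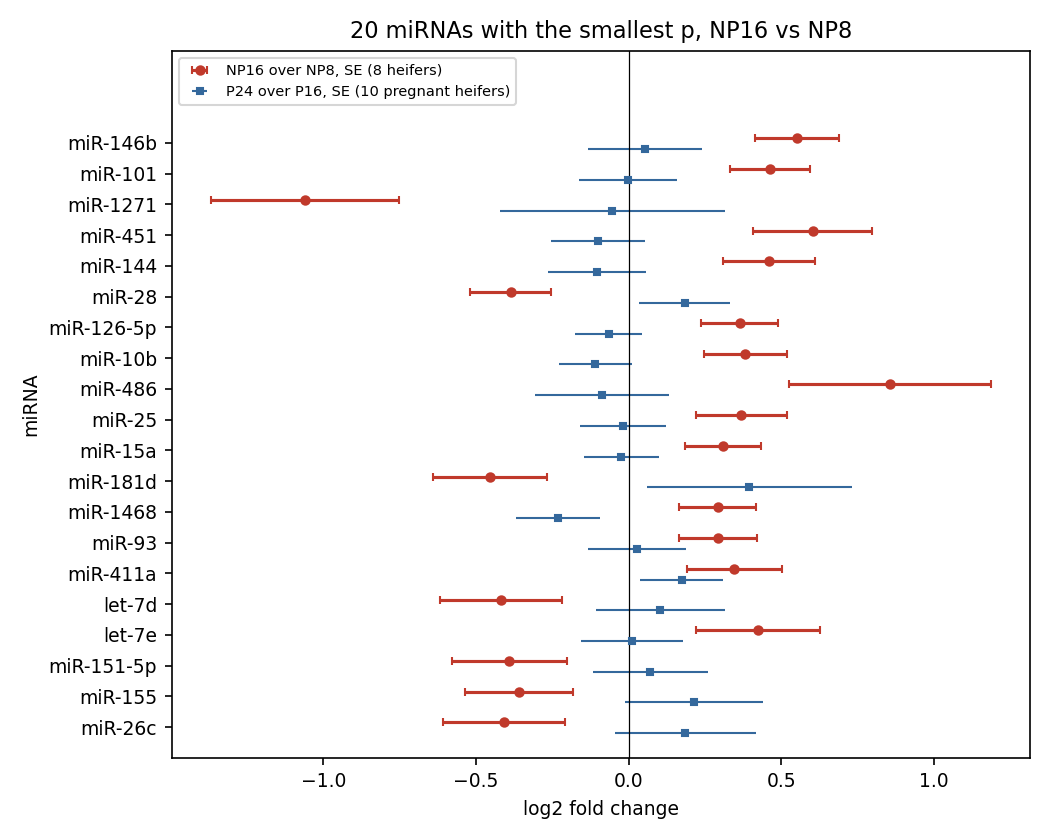
Log2 fold change (TMM scale) of the 20 miRNAs with the smallest p in NP16 over NP8 (red circles, 8 non-pregnant heifers), beside P24 over P16 (blue squares, 10 pregnant heifers); bars are SE. The red values run from -1.06 to 0.85 and none passed the adjusted threshold, and no miRNA reached an unadjusted p under 0.05 in P24 over P16.

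The plot of the 20 sets the luteal interval beside the interval of 8 days in pregnant heifers, from which heifer 28 was left out. The study set aside a Day 16 pregnant library with a very low total RPM without naming the animal in its text. The P16 library of heifer 28 had 33.1% of mapped reads in miRNAs, where the other 10 had 60.9% to 73.1%, and it was taken to be that library. In P24 over P16, edgeR called 0 of 214 (0%) past the adjusted threshold and 0 at an unadjusted p under 0.05. The difference between the changes in the non-pregnant and the pregnant heifers was tested as an interaction: 0 passed the threshold (smallest adjusted p 0.67), with 14 (6.54%) at an unadjusted p under 0.05. The intervals differ in the days covered as well as in pregnancy status, and these cannot be told apart. The smallest p belonged to miR-28, with -0.39 in NP16 over NP8 and 0.18 in P24 over P16 (difference in the joint fit -0.60 ± 0.20, edgeR adjusted p = 0.67). miR-451 had 0.60 and -0.10 in the same 2 intervals (difference in the joint fit 0.67 ± 0.25, edgeR adjusted p = 0.67).

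The most abundant miRNAs other than those above had log2 fold changes between -0.17 and 0.21. miR-22-3p took 48050.2, 65469 and 87137 RPM in NP16, against 53227, 86457 and 103955 RPM in NP8, with a log2 fold change of -0.10 ± 0.12. miR-192, of liver and gut, had 26332, 29208 and 63510.0 RPM in NP16, against 30953, 39696 and 51208 RPM in NP8, and -0.12 ± 0.14. miR-191 had -0.05 ± 0.17, miR-423-5p 0.09 ± 0.15, miR-92a 0.21 ± 0.19, and miR-142-5p, known from blood cell lineages, 0.06 ± 0.14. miR-27b had 0.02 ± 0.13, miR-30d -0.13 ± 0.13, miR-140 0.02 ± 0.12, miR-21-5p -0.17 ± 0.13 and miR-30e-5p -0.0037 ± 0.11. With library totals the values of miR-423-5p, miR-142-5p, miR-27b and miR-140 were negative (-0.10, -0.12, -0.17 and -0.16).

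Families, grouped by name with either arm, and genome clusters were described by the count of their tested members in each direction. Over all 214, 54.2% were positive with a median of 0.02, and no member of any list passed the adjusted threshold. All 3 members of the miR-26 family were negative, and their levels covered a wide range. miR-26a had 3260.0, 3948 and 8475 RPM in NP16, against 2907, 7678 and 19936 RPM in NP8, with a log2 fold change of -0.37 ± 0.19 (95% interval -0.78 to 0.04, edgeR adjusted p = 0.63), and 3 of 8 heifers were higher on Day 16. Heifers 35 and 22 had the highest Day 8 values. miR-26b had -0.32 ± 0.19. miR-26a and miR-26c are placed on opposite strands of the same stretch of chromosome 22 (11464112 to 11464133), so that their sequences are reverse complements. Their reads ran close together, with 109357 and 94446 in NP8 of heifer 35 and 15621 and 12736 in NP8 of heifer 16. The 3 negative values of this family, grouped by name, may therefore not be 3 separate signals. How reads were assigned to the 2 names was not tested.

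The let-7 family with miR-98, a marker of differentiated cells, had 8 of 10 negative values (median -0.07), from -0.42 for let-7d to 0.42 for let-7e. The 10 include let-7a-3p, an opposite arm without the let-7 seed (-0.03). The miR-181 family (4 of 4 negative, median -0.14), the miR-29 family, which lowers collagens (3 of 3, median -0.09), and the miR-221 and miR-222 pair (2 of 2, median -0.24) were negative throughout. The miR-28 and miR-151 group was negative in 3 of 3 (median -0.39). The miR-30 family was negative in 4 of 6 (median -0.07), with miR-30c at -0.37 ± 0.21. The family of miR-2284 and miR-2285 names, known from ruminants, had 10 of 58 names past the filter and was negative in 7 of 10 (median -0.09), and its closely related members may share reads.

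Other groups were positive on the TMM scale. The miR-25, miR-92 and miR-363 family had 5 of 5 positive values (median 0.23, and 4 of 5 with library totals). The miR-15 and miR-16 family had 5 of 6 (median 0.18, and 3 of 6 with library totals), where miR-497 (0.0043) and miR-195 (-7.4e-06) were close to 0. miR-92a, miR-16a and miR-16b of these families are also in the red cell list, so that the counts partly repeat its values. The smooth muscle and mesenchyme list (miR-10a, miR-10b, miR-143, miR-145, miR-214 and the miR-199 names) had 9 of 9 (median 0.16), with 4 of 9 positive with library totals (median -0.02). Of 5 further lists that were positive in every tested member on the TMM scale, the direction depended on scaling: 1 of 3 in the miR-320, miR-484 and miR-877 group was positive with library totals, and 0 of 5 in the miR-23, miR-27 and miR-24 clusters, 0 of 2 in the miR-19 family, 0 of 2 in the miR-103 and miR-107 pair and 0 of 2 in the miR-532 and miR-660 cluster. The miR-17 family was positive in 3 of 6 (median 0.01), where the 6 include miR-17-3p, an opposite arm without the miR-17 seed (-0.04). The miR-148 and miR-152 family was positive in 2 of 4 (median -0.08), and in 0 of 4 with library totals. Its 2 positive values were close to 0 (0.0015 for miR-152 and 5.7e-05 for miR-2957). The miR-130 and miR-301 family was positive in 1 of 4 (median -0.14) and the family of miR-99, miR-100 and the miR-125 names in 1 of 5 (median -0.02). miR-182 was the tested member of its cluster and had 0.11 ± 0.15.

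miRNAs of the Dlk1-Dio3 region, an imprinted cluster expressed from the maternal chromosome and prominent in embryo, placenta and brain, had positive values in 12 of 12 tested members (median 0.21), and in 7 of 12 with library totals (median 0.02). The filter on low values left 12 of the 55 names of the list. They ran from 0.05 for miR-136 to 0.35 for miR-411a, and 1 of the 12 was at an unadjusted p under 0.05. miR-411a had 52.9, 68.0 and 96.1 RPM in NP16, against 41.6, 58.5 and 82.0 RPM in NP8. The summed RPM of all 55 names was 1026, 1359 and 1522 in NP16 and 977, 1344 and 1549 in NP8 (lowest, median and highest), with overlapping ranges, and within animals it was higher on Day 16 in 2 of 8 heifers and lower in 6, against the direction of the log2 fold changes on the TMM scale. In NP8 over NP0, which shares the NP8 libraries, 0 of 12 were positive (57% of all 214 were), with a median of -0.47, and miR-411a had -0.47 ± 0.20. Of the 12, miR-409b passed the filter through NP0 alone, so that the filter itself favoured a negative value in NP8 over NP0. miR-136 passed in NP0 and in both pregnant groups, and not in NP8 or NP16. The smooth muscle and mesenchyme list had 1 of 9 positive there (median -0.44). In NP8 over NP0 edgeR called 0 of 214 (0%) past the threshold, with 23 (10.7%) at an unadjusted p under 0.05.

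miRNAs linked to the ovary and the corpus luteum, the gland that separates these stages of the cycle, had 11 of 20 names past the filter, with 6 of 11 positive values on the TMM scale (median 0.04), 1 of 11 with library totals, and 0 of 11 at an unadjusted p under 0.05. Among them miR-21-5p, which favours cell survival in luteal and granulosa cells, had 6196, 9471 and 13298 RPM in NP16, against 6184, 13491 and 18796 RPM in NP8, miR-125b had a log2 fold change of -0.31 ± 0.17, and miR-145 had 0.19 ± 0.25. None is made only by the ovary.

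Markers of other tissues gave no like pattern. miR-122, a hepatocyte miRNA, had 9.93, 38.99 and 50.2 RPM in NP16, against 5.55, 38.9 and 74.2 RPM in NP8, and a log2 fold change of 0.09 ± 0.19. miR-133a, of striated muscle, had 23.7, 108 and 1179 RPM in NP16, against 22.3, 85.4 and 2915 RPM in NP8, and 0.15 ± 0.70. Of the muscle list 1 of 3 was positive (median -0.12), of the liver and gut list 1 of 4 was (median -0.11), of the epithelium list 3 of 4 (median 0.03; 0 of 4 with library totals), of the platelet list 4 of 7 (median 0.08; 2 of 7 with library totals), and of the leukocyte list 7 of 12 (median 0.03; 2 of 12 with library totals).

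**Figure D5:**
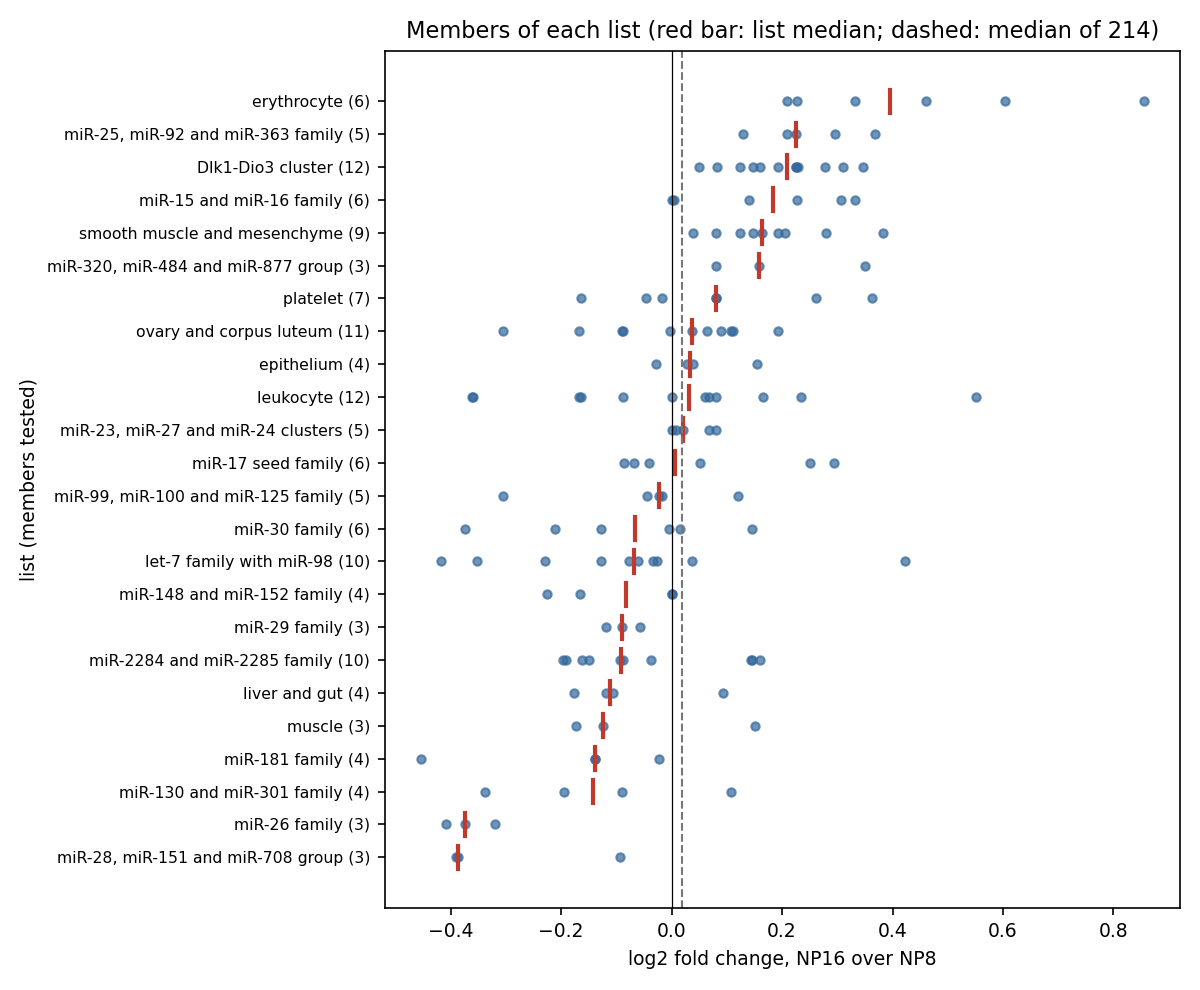
Log2 fold change (NP16 over NP8, TMM scale) of each tested member (blue points) of the lists with at least 3 tested members, with each list's median in red and the median of all 214 (0.02) dashed. The red cell list has the highest median (0.40) and the miR-28 and miR-151 group the lowest (-0.39); with library totals the median of all 214 is -0.17, and 4 of 9 smooth muscle and mesenchyme members and 7 of 12 Dlk1-Dio3 members are positive.

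The plot of lists shows each list's members beside the median of all 214. Neighbours in the genome, same strand and within 10 kb on UMD 3.1, formed 45 groups of 104 tested miRNAs. In 32 of the 45 all members had the same sign, 17 positive and 15 negative. Of the 45, 37 were pairs, and 27 of these had a single sign. With 54.2% of all 214 positive, many unrelated pairs would also share a sign, and that share was not worked out. The standard deviation of the log2 fold change was 0.12 within groups and 0.22 over all 214. The latter also covers miRNAs outside the groups, so these 2 values are from unlike sets. Of the 32 groups from separate hairpins 24 had a single sign, of the 9 pairs of arms from the same hairpin 4 did, and of the 4 groups of overlapping names, whose reads may be shared, 4 did. miR-451 and miR-144 on chromosome 19, miR-106b, miR-93 and miR-25 on chromosome 25, and miR-15a and miR-16a on chromosome 12 were positive groups. let-7f and let-7d on chromosome 8 (-0.35 ± 0.25 and -0.42 ± 0.20), miR-181c and miR-181d on chromosome 7, and miR-221 and miR-222 on the X chromosome were negative ones.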

How the data were processed

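RNA from plasma was made into TruSeq small-RNA libraries. The authors trimmed and filtered single-end reads, used sRNAtoolbox to align them to the UMD 3.1 bovine assembly, and assigned them to mature miRNAs of miRBase, bovine and human, with 1 mismatch allowed. The deposited read counts per miRNA name are not normalised. The deposited RPM values are the counts as the authors scaled them by each library's mapped reads.

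NP16 and NP8 libraries were compared with edgeR 4.0.16 in R 4.3.3 (TMM scaling, quasi-likelihood test, Benjamini-Hochberg adjustment, FDR limit 0.1), with the heifer as a block. The pairing comes from the subject number in the labels. As a check, the correlation of deviations from the day means was 0.30 to 0.55 between a heifer's own 2 libraries, over 0.1 in 8 of 8, and the own library was the best match for 7 of 8. The exception was heifer 16, whose NP16 library had 0.30 with its own NP8 library and 0.34 with that of another heifer. That NP16 library was also the shallowest of NP16 and NP8, at 1488279 miRNA reads. Results that turn on heifer 16 carry both limits. The filter removed names that stayed below 25 RPM in over 75% of libraries in all 5 groups, leaving 214 of 870 (209 bovine and 5 human); 7 of the 214 would not pass on NP16 and NP8 alone. Library measures and correlations over heifers were tested by exact two-sided permutation in Python 3.11.15 (scipy 1.17.1, pandas 2.3.3, numpy 2.4.6, matplotlib 3.10.9 for figures). Alternatives used DESeq2 1.42.0, limma 3.58.1 on log2(RPM + 1) and log2(RPM + 0.1), other scalings, filters and samples, and each heifer left out. The edgeR fit was also run on simulated counts with added changes larger than nearly all those seen here. That run does not show how well small changes would be found.

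Named were the 20 miRNAs with the smallest p, the 15 most abundant, the 5 largest values in each direction at 100 RPM or more, and 5 markers; list members were named as examples after their values were seen. The comparison and the 29 lists were chosen with earlier results of these data known. Depth was 1488279 to 4700764 miRNA reads per library, and the correlation between libraries was 0.983 to 0.996. The labels name no sequencing batches. Mature sequences were not used here.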

Additional observations from a re-analysis of the deposited data

Results flagged for a closer look

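In 90 groups of 8 values (36 named miRNAs and the library measures, on each day), the highest or lowest heifer was tested for a gap to the others by Dixon's criterion, and 5 stood apart (5.56%, where chance gives about 1 in 20). miR-146b had 83.23 RPM in NP16 of heifer 18, with the next heifer at 47.82 RPM. let-7e had 3.21 RPM in NP16 of heifer 22, with the next at 22.89 RPM, and 1.4 RPM in NP8 of the same heifer, with the next at 19.95 RPM. miR-192 had 63510.0 RPM in NP16 of heifer 16, with the next at 37926.2 RPM. miR-140 had 6772.75 RPM in NP8 of heifer 16, with the next at 11000.7 RPM. What set these libraries apart was not tested.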

How the results depend on the processing

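With 8 pairs the smallest exact p is 0.0078, the median standard error of a log2 fold change was 0.15, and intervals cover the spread between heifers on the days sampled. The count past the FDR limit was 0 in most settings, 4 with DESeq2, 4 with no filter, and 0 to 5 with each heifer left out. The count at an unadjusted p under 0.05 (an addition chosen after seeing the data) was 15, and became 5 with no replicate block, 31 with library totals, 8 with all 24 NP libraries, 44 with no filter and 8 to 33 with each heifer left out. The pairing of the days by heifer thus moved that count by over 1.5 times, and without the block the count past the FDR limit was 0 and the log2 fold change of miR-122 was -0.035 and that of miR-133a -0.71. Over 36 named miRNAs and 752 alternative values, 677 kept sign and side of the threshold, 62 changed sign (24 of them with a heifer left out) and 13 newly passed the threshold; 27 of 36 never changed sign. With library totals the values were -0.10 for miR-423-5p, -0.12 for miR-142-5p, -0.17 for miR-27b, -0.16 for miR-140, -0.19 for miR-23a, -0.073 for miR-122 and -0.057 for miR-133a. With limma on log2(RPM + 1), limma on log2(RPM + 0.1) and the permutation test they were -0.10, -0.12, -0.16, -0.16 and -0.18 for the first 5 of these, -0.049, -0.040 and -0.049 for miR-122, and -0.31 for miR-133a throughout. With no filter miR-27b had -0.025, miR-140 -0.022 and miR-23a -0.044. miR-23a had -0.0047 with DESeq2 and with its size factors and -0.012 with the filter on NP16 and NP8, miR-30e-5p had 0.0031 with the 100 RPM filter, and miR-133a had -0.30 with all 24 NP libraries. With each heifer left out, ranges were -0.25 to 0.055 for miR-191, -0.067 to 0.13 for miR-142-5p, -0.095 to 0.078 for miR-27b, -0.026 to 0.075 for miR-140, -0.13 to 0.054 for miR-30e-5p, -0.043 to 0.035 for miR-23a, -0.037 to 0.19 for miR-122 and -0.28 to 0.66 for miR-133a. They were 14.9% to 34.0% for the share of within-animal variance, -1.04 to 1.15 percentage points for the miRNA share of mapped reads, 6.96 to 13.5 percentage points for the red cell share and 0.42 to 0.81 for the log2 ratio of miR-451 to miR-23a. The difference in names with a read was -8.63 at equal depth (exact p = 0.18). The cause of these changes was not tested, except that leaving out a heifer or filter changes the samples or miRNAs tested.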
